A study of Sorghum bicolor with 14 samples.

Results

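The authors' development table of stem RNA holds 34755 rows, of which 2003 carry no gene name. Of these, the 282 loci (14.1%) whose highest value over 4 stages was at least 10 FPKM are described here. FPKM divides the sequenced fragments of a locus by its length and by the library total. The 282 loci were chosen by these values and by the empty name alone, and they make up 2.48% of the 11354 rows that reach the same level. The other 11072 of those rows carry Sobic gene names and serve as the comparison below. Of the remaining unnamed rows, 959 stay under 1 FPKM at all 4 stages.

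All 14 samples, in 7 groups of 2, were middle stem internodes of CSV24SS, a variety of sweet sorghum (Sorghum bicolor). Development plants grew in a soil bed given nitrogen fertilizer, with regular watering, and were sampled at floral initiation (FI), booting (B), the milky stage (MS) and soft dough (SD). Drought plants grew 1 to a pot, had water withheld from the flag leaf stage, and were harvested at booting at about 13% (D1), 7% (D2) or 2% (D3) soil moisture. The table gives 1 value by the authors per locus and group, so no value below has a replicate error, no test was possible, and the depth behind each value is unknown.

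Transcript assembly from RNA reads joins overlapping fragments into loci, and a locus that is matched to no model of the annotation in use is left without a gene name. Such loci can be protein-coding genes that the annotation lacks, long non-coding RNAs (lncRNAs), pseudogenes, extensions or antisense transcripts of known genes, or pieces of 1 longer transcript. Plant lncRNAs are known to be expressed in fewer tissues and stages than coding genes. The identifiers of the loci here run as MSTRG numbers, and the file gives neither strand nor sequence.

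Of the 282 loci, 201 were the only row at their position, 61 shared it with a named row and 20 shared it with other unnamed rows alone. Sole rows were 71.3% of the unnamed loci and 84.5% of the named rows at 10 FPKM or more. Where rows share a position, the file gives the span of the whole cluster, which holds up to 14 rows, so lengths and distances below are for the 201 sole loci. Their median length was 2449 bases, with quartiles of 1629 and 3522 bases and a range of 595 to 18245. Named sole rows at the same level had a median of 4091 bases. Loci under 2000 bases were 35.8% of the unnamed sole loci (72) and 13.4% of the named ones. Unnamed sole loci were therefore shorter than named ones and longer than the 1338 unnamed sole loci under 10 FPKM, whose median was 1392.5 bases. Length and highest level had a Pearson r of -0.146 across the 201 loci on the log2 scale.

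The unnamed loci lay farther from named genes than named genes lie from each other. The median gap from a sole unnamed locus to the nearest named row was 2661 bases, against 1442 bases for a named sole row. The gap was at most 5 kb for 131 loci (65.2%), against 82.8% of named rows, and at most 100 kb for 192 loci (95.5%), against 99.1%. A count of the named loci within 500 kb on either side gave a median of 58 around sole unnamed loci and 99 around named rows. Fewer than 20 named loci lay in that window for 50 of 198 sole unnamed loci on chromosomes (25.3%), against 597 of 11063 named rows (5.40%). These named rows include shared positions. With shared positions also included for the unnamed loci, the count was 61 of 278 (21.9%). Unnamed loci were thus more often in gene-poor stretches, although most had a named row within 5 kb.

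**Figure D1:**
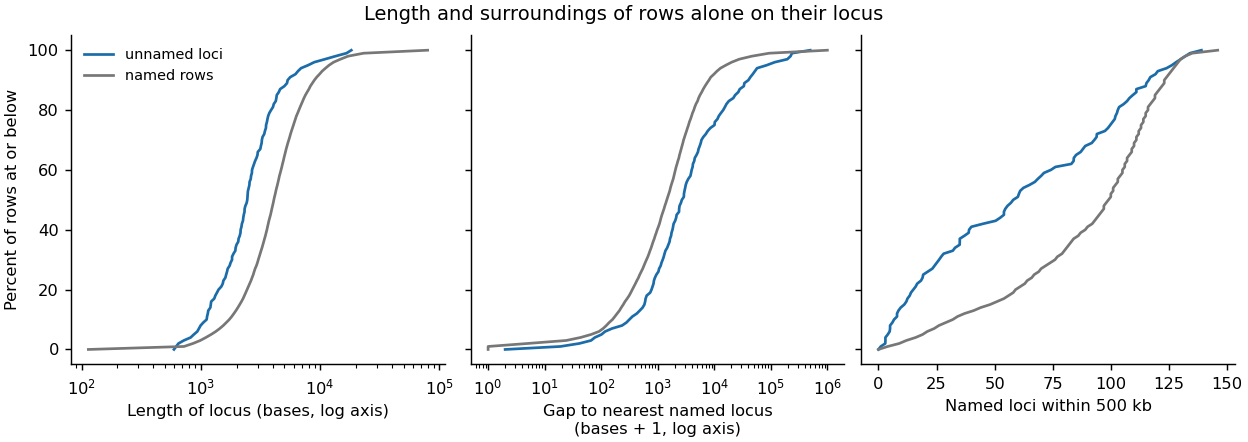
Length of the locus, gap to the nearest named row and number of named loci within 500 kb, each as percentile curves for unnamed and named sole loci at 10 FPKM or more. The unnamed loci were shorter (median 2449 against 4091 bases), farther from a named row (2661 against 1442 bases) and had fewer named loci around them (58 against 99).

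By chromosome, unnamed loci made up 7.54% of the rows at 10 FPKM or more on chromosome 5 (39 loci) and 5.69% on chromosome 8 (31 loci). On the other 8 chromosomes the share ran from 1.25% on chromosome 4 (17 loci) to 3.08% on chromosome 10 (29 loci). A further 4 loci lay on unplaced scaffolds. Of these, MSTRG.24290 and MSTRG.24292 both lie on super_414. MSTRG.24290 was at 39.0 FPKM at FI, 26.6 at B, 14.2 at MS and 41.5 at SD. MSTRG.24292 was at 36.8, 25.3, 12.6 and 38.4 FPKM in the same order. Both were lowest at MS and highest at SD. The farthest from a named row was MSTRG.19488 (chromosome 8, 22632921 to 22635380), with a gap of 494411 bases and no gene of the reference annotation at its position. It was at 24.8 FPKM at FI, 9.92 at B, 20.9 at MS and 29.3 at SD, lowest at booting.

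A second annotation, RefSeq's for the sorghum line BTx623 (assembly Sorghum_bicolor_NCBIv3), names a gene at many of these positions. Of the 201 sole loci, 77 (38.3%) overlapped a protein-coding gene, 74 (36.8%) a lncRNA, 6 a pseudogene and 41 (20.4%) no gene, while 3 lay on scaffolds that were not compared. Of 27632 named sole rows on chromosomes, at any level, 85.0% overlapped a RefSeq gene of some type. Shares by gene type are not given for named rows, so whether those of the unnamed loci are unusual is not shown. With at least 50% of the locus covered, 70 were on a coding gene and 69 on a lncRNA. The file holds no strand, so a locus could lie on either strand of the RefSeq gene. Among loci that share their position, 76 of 81 overlapped a RefSeq gene. There the span is that of the whole cluster, most often with a named row in it, so the overlap says little about the unnamed row. The loci with no RefSeq gene were the shortest, with a median of 1500 bases, against 2702 on coding genes, 2586 on lncRNAs and 4314 on pseudogenes. Their median highest level was 24.4 FPKM, against 19.3 on coding genes, 21.9 on lncRNAs and 15.8 on pseudogenes.

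The level of the unnamed loci was lower than that of named rows. Their highest stage had a median of 20.6 FPKM, against 32.0 FPKM for named rows, and 24 loci (8.51%) reached 100 FPKM, against 18.2% of named rows. The stage medians were 11.6 FPKM at FI, 13.2 at B, 13.5 at MS and 13.1 at SD, against 21.4 to 22.1 for named rows. At least 10 FPKM at all 4 stages was held by 95 loci (33.7%), against 6944 named rows (62.7%). In each stage 28 to 32 loci (9.93% to 11.3%) were under 1 FPKM, against 1.09% to 3.05% of named rows, and 15 to 19 were listed at 0. Their sum was 1.18% to 1.33% of the summed FPKM of a stage. At the lower limit, MSTRG.19984, MSTRG.23161 and MSTRG.1926 had highest values of 10.0288, 10.0308 and 10.0455 FPKM. Just outside it lay MSTRG.14319 at 9.97 FPKM, MSTRG.11554 at 9.96 and MSTRG.7242 at 9.94.

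The highest level of all belonged to MSTRG.20299 (chromosome 9, 1187764 to 1188696), which overlaps the RefSeq coding gene LOC8068677. It was at 2522 FPKM at FI, 524 at B, 623 at MS and 1213 at SD, high at the first and last stage. Its nearest named row, of Sobic.009G013200 and Sobic.009G013400, lay 2464 bases away. MSTRG.16065 (chromosome 6, 49830493 to 49832768, LOC8075881, coding) was at 276 FPKM at FI, 322 at B, 250.4 at MS and 353 at SD. MSTRG.20202 (chromosome 9, 91125 to 92267, LOC8066581, coding) was at 187 FPKM at FI, 194 at B, 185 at MS and 233 at SD. Both stayed within 2-fold over the stages. MSTRG.13768 (chromosome 5, 2267269 to 2270731, LOC8083076, coding) was at 174 FPKM at FI, 249.8 at B, 181 at MS and 224 at SD, also within 2-fold. MSTRG.7634 (chromosome 3, 3440845 to 3443361, LOC8084365, coding) was at 119 FPKM at FI, 26.7 at B, 88.7 at MS and 281 at SD. It was low at booting, with a log2 difference of 3.35 between SD and B.

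Where no RefSeq gene is named, the highest locus was MSTRG.13563 (chromosome 4, 68310263 to 68311762). It was at 127 FPKM at FI, 194 at B, 174 at MS and 346 at SD. Its nearest named row, Sobic.004G355750, was 3117 bases away and stayed under 1 FPKM. MSTRG.250 (chromosome 1, 2368702 to 2371003) was at 109.8 FPKM at FI, 132 at B, 146 at MS and 129 at SD, within 2-fold throughout. MSTRG.9775 (chromosome 3, 64080595 to 64081731) was at 1.72 FPKM at FI, 27.4 at B, 113 at MS and 53.9 at SD, low only at floral initiation, with a log2 difference of 5.39 between MS and FI.

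Among loci on RefSeq lncRNAs, MSTRG.3397 (chromosome 1, 72269536 to 72273152, LOC110431767) was the highest sole locus. It was at 76.4 FPKM at FI, 224 at B, 231 at MS and 112 at SD, high at the 2 middle stages. The row of Sobic.001G446000, 2661 bases away, was at 3.66, 10.8, 19.0 and 7.03 FPKM in the same order, and the 2 had r of 0.940 over 4 points. MSTRG.17924 (chromosome 7, 38021281 to 38023337, LOC8071005) was at 67.4 FPKM at FI, 205 at B, 113 at MS and 178 at SD, lowest at FI. MSTRG.20958 (chromosome 9, 41612220 to 41615163, LOC110430214) was at 30.4 FPKM at FI, 40.9 at B, 57.0 at MS and 93.8 at SD, higher at each later stage. MSTRG.13982 (chromosome 5, 6299528 to 6301885, LOC8079720) was at 25.01 FPKM at FI, 2.52 at B, 39.5 at MS and 75.1 at SD, low at booting. MSTRG.4895 (chromosome 2, 12122413 to 12125856, LOC110432914) was at 43.1 FPKM at FI, 48.4 at B, 48.8 at MS and 56.9 at SD, nearly level. Loci on lncRNAs thus followed no single stage pattern.

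Stages were compared on the log2(FPKM + 1) scale, on which weak loci differ by less than their FPKM ratio, and a difference of at least 1 is called 2-fold. The highest and the lowest stage were at least 2-fold apart in 199 of the 282 loci (70.6%). The same holds for 49.2% of the 19382 rows that reach 1 FPKM at any stage and for 48.6% of the named rows at 10 FPKM or more. Rows that reached 10 FPKM through 1 stage only differ more readily by that choice, though not always 2-fold. MSTRG.19984, for example, reached it at SD only and had a log2 range of 0.92. At least 10 FPKM at all 4 stages was held by 33.7% of unnamed loci and 62.7% of named rows. The choice therefore bears more on the unnamed loci. The median range over stages was 1.55 in unnamed loci and 0.98 in named rows, and a range of at least 4 was seen in 41 unnamed loci (14.5%), against 3.60% of named rows. Without the booting column, 132 unnamed loci (46.8%) differed at least 2-fold among FI, MS and SD. The backgrounds were then 37.6% of measured rows and 39.2% of named rows. The loci were chosen with the booting column in. Those under 1 FPKM at FI, MS and SD cannot differ 2-fold without it, so part of this fall follows from the choice. No other stage was left out for comparison. Of the sole loci with no RefSeq gene, 34 of 41 (82.9%) differed at least 2-fold. The counts were 52 of 77 (67.5%) on coding genes, 47 of 74 (63.5%) on lncRNAs and 4 of 6 on pseudogenes.

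**Figure D2:**
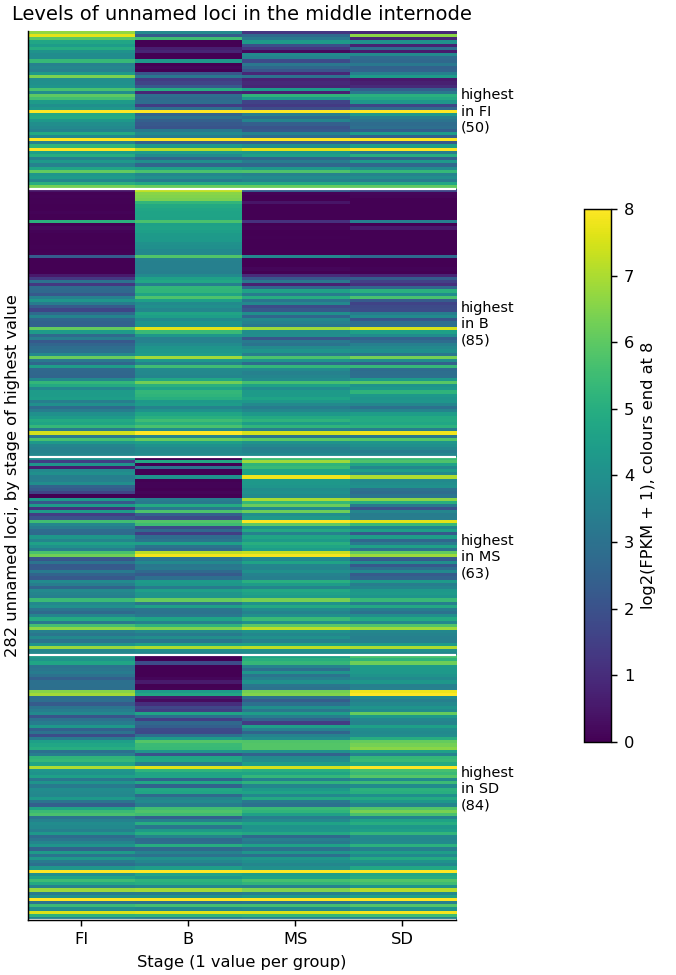
Level of each of the 282 unnamed loci at FI, B, MS and SD as log2(FPKM + 1), 1 line per locus, grouped by the stage of the highest value. The highest value fell in FI for 50 loci, B for 85, MS for 63 and SD for 84.

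The highest value fell at FI in 50 unnamed loci (17.7%), at B in 85 (30.1%), at MS in 63 (22.3%) and at SD in 84 (29.8%). In named rows the shares were 27.9%, 24.8%, 20.2% and 27.2%, so fewer of the unnamed loci were highest at floral initiation. A value that was higher at each later stage, with a 2-fold range, was found in 6 loci (2.13%), and one that was lower at each later stage in 7 (2.48%). Both shares were below those of named rows, 3.61% and 4.55%. MSTRG.19355 and MSTRG.19356, both on chromosome 8 with no RefSeq gene, were among the 6. MSTRG.19355 was at 2.70 FPKM at FI, 6.82 at B, 10.8 at MS and 13.9 at SD. MSTRG.19356 was at 3.26, 6.60, 9.65 and 19.3 FPKM in the same order. The pair lay next to each other, at 10242337 to 10243146 and 10246310 to 10247182.

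Between booting and floral initiation, 67 unnamed loci (23.8%) were at least 2-fold higher at booting and 68 (24.1%) lower. The background was 9.76% higher and 17.8% lower over measured rows, and 10.9% and 15.8% over named rows at 10 FPKM or more. Between the milky stage and booting, 62 (22%) were higher at MS and 49 (17.4%) lower, beside 8.16% and 7% of measured rows and 8.53% and 6.65% of named rows. All 4 shares were above both backgrounds. From the milky stage to soft dough, 25 (8.87%) were higher and 22 (7.8%) lower, beside 6.45% and 4.28% of measured and 7.39% and 5.62% of named rows. These shares were nearer to their backgrounds than those of the comparisons with booting. Between soft dough and booting, 73 (25.9%) were higher at SD and 52 (18.4%) lower, beside 12.6% and 9.97% of measured and 12.9% and 10.5% of named rows.

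At MS against FI, 52 unnamed loci (18.4%) were higher and 37 (13.1%) lower, beside 9.2% and 16.3% of measured and 11.5% and 14.4% of named rows. At SD against FI, 56 (19.9%) were higher and 33 (11.7%) lower, beside 11.1% and 15.9% of measured and 13.5% and 14.9% of named rows. In both, the share of higher loci was above the backgrounds and that of lower loci below them. With a pseudocount of 5 in place of 1, the higher share at MS against FI was 9.93%, beside 4.87% of measured and 7.97% of named rows. The lower share was then 11.0%, above the 7.94% of measured rows and below the 11.5% of named rows. At SD against FI both directions held at that setting, with 13.1% higher and 7.09% lower. The median log2 difference of the unnamed loci was 0.20 for B against FI, 0.19 for MS against FI and 0.26 for SD against FI. Comparisons that share a stage share its values. Across the 282 loci, levels at B had r of 0.328 with FI, 0.372 with MS and 0.344 with SD on the log2 scale. The other pairs had r of 0.728 (MS and FI), 0.796 (SD and FI) and 0.905 (SD and MS). In named rows at the same level, B had r of 0.706 with FI, 0.861 with MS and 0.777 with SD. Loci are not independent replicates, and these r values describe 1 value per stage. The loci were also chosen by these same values. A locus that reached 10 FPKM at booting alone lowers r with B, so part of the low r follows from the choice.

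**Figure D3:**
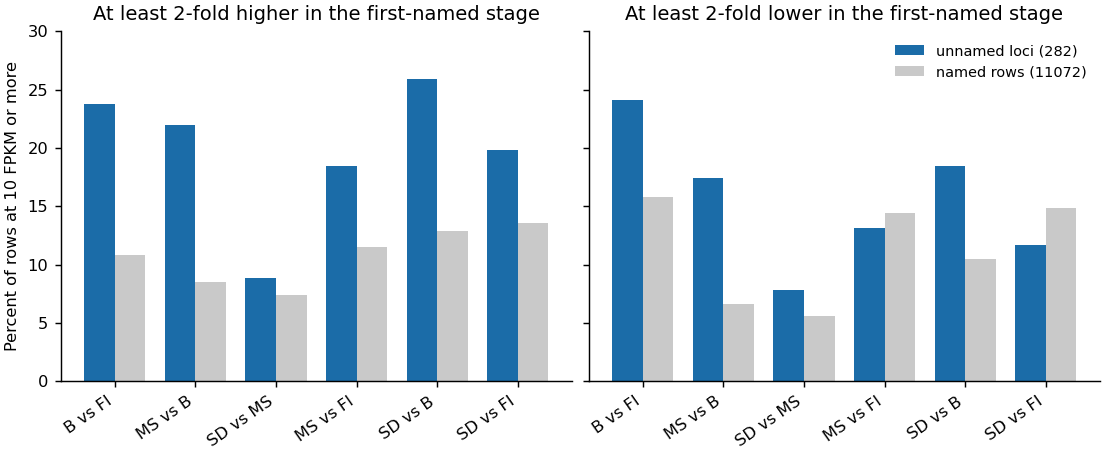
Percent of loci at least 2-fold higher (left) and at least 2-fold lower (right) in the first-named stage of each pair, for 282 unnamed loci and 11072 named rows at 10 FPKM or more. The unnamed loci exceeded the named rows in both directions in each comparison with booting, for example 23.8% against 10.9% higher and 24.1% against 15.8% lower for B against FI.

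Booting stood apart in a set of loci that were present there alone or missing there alone. After the values were seen, a locus was counted as alone high at a stage when it had at least 10 FPKM there and under 1 FPKM at the other 3 stages. It was counted as alone low when it had under 1 FPKM there and at least 10 FPKM at the other 3. Booting was alone high in 25 unnamed loci and alone low in 10, together 35 (12.4%). The 25 are among the 282 loci through their booting value alone, and the 10 through the other 3 stages. The share was 0.542% of measured rows and 0.632% of named rows at 10 FPKM or more. For FI, 1 locus was alone high and 0 alone low, and for MS and SD there were 0 of either. Named rows had 89 alone high and 9 alone low at FI, together 0.885%. At B they had 38 alone high and 32 alone low, together 0.632%, and at MS 2 alone high. In named rows such patterns were thus more frequent at FI than at B.

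The 25 loci alone high at booting had 10.0455 to 95.2 FPKM there, with a median of 19.4. Their highest value at any other stage was 0.963 FPKM, and 12 of them were listed at 0 at all 3 other stages. They lay on 7 chromosomes, and 21 were sole loci. Of these 21, 10 overlapped a RefSeq lncRNA, 7 a coding gene and 4 no gene. Over all 25 the counts were 11, 10 and 4, where a shared position stands for the span of its whole cluster. A locus that overlapped a coding gene was counted as coding whatever else it overlapped. MSTRG.15353 (chromosome 6, 17176824 to 17178444, LOC110436117, lncRNA) was at 0.0238 FPKM in FI, 83.5 in B, and listed at 0 in MS and SD. Its nearest named row was 194900 bases away. MSTRG.17988 (chromosome 7, 49247639 to 49250451, LOC110436737, lncRNA) was at 0.0584 FPKM in FI, 88.1 in B, listed at 0 in MS, and at 0.0814 in SD. Both were present at booting and nearly missing elsewhere. The row of Sobic.007G114401, which shares the position of MSTRG.17988, was at 1.40 FPKM in B and listed at 0 at the other stages.

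The 2 shortest sole loci, MSTRG.2035 (595 bases) and MSTRG.2036 (607 bases), had this pattern and lie next to each other on chromosome 1, at 51134456 to 51135050 and 51135346 to 51135952. They were at 13.0 and 23.9 FPKM in B and listed at 0 at the other stages. MSTRG.8402 (chromosome 3, 13453443 to 13455632) came close to the pattern, at 0.375 FPKM at FI, 151 at B, 4.04 at MS and 2.23 at SD. A second unnamed locus at the same position, MSTRG.8401, was at 51.1 FPKM at FI, 144 at B, 160 at MS and 66.7 at SD. Both rows cover a transcribed pseudogene of RefSeq, LOC110433815, and only 1 of them was low outside booting.

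The 10 loci alone low at booting ran from 10.1 to 25.5 FPKM in FI, 13.0 to 45.7 in MS and 12.8 to 50.5 in SD. At booting 8 of them were listed at 0, and the highest was at 0.0609 FPKM. Of the 10, 9 were sole loci, of which 3 overlapped a RefSeq lncRNA, 2 a coding gene and 4 no gene. Over all 10, with cluster spans for shared positions, 3 overlapped a coding gene. MSTRG.15464 (chromosome 6, 38286394 to 38287846, LOC110436619, lncRNA) was at 15.9 FPKM at FI, 45.7 at MS and 43.0 at SD, and listed at 0 at B. MSTRG.21571 (chromosome 9, 53341328 to 53344967, LOC8077029, coding) was at 16.8 FPKM at FI, 36.5 at MS and 23.7 at SD, and listed at 0 at B. MSTRG.8759 (chromosome 3, 48060591 to 48063051, no RefSeq gene) was at 19.5 FPKM at FI, 0.0297 at B, 24.2 at MS and 50.5 at SD. All 3 were above 10 FPKM before and after booting. The row nearest to MSTRG.8759, Sobic.003G182400, was at 55.8, 29.3, 21.0 and 23.9 FPKM in stage order and was not low at booting. The nearest named row reached 1 FPKM for 13 of the 25 loci alone high at booting. It did so for 4 of the 10 alone low there. By the limits used for the unnamed loci, 0 of these rows had the same pattern. Of all named rows at 10 FPKM or more, 0.343% were alone high and 0.289% alone low there, so the 0 says little about neighbours. Of the 13, 8 stayed within 2-fold over the stages. Sobic.003G175400, nearest to MSTRG.8708, was at 5.92 FPKM at B, and Sobic.007G114401 at 1.40, both listed at 0 at the other stages.

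**Figure D4:**
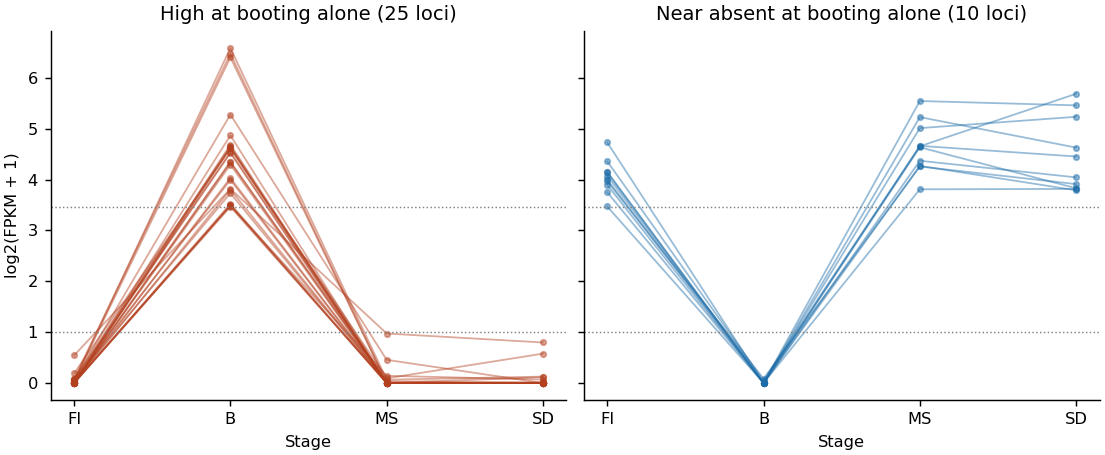
Level at each stage, as log2(FPKM + 1), of the 25 unnamed loci alone high at booting (left) and the 10 alone low there (right), with dotted lines at 1 and 10 FPKM. The left lines peak at B between 10.0455 and 95.2 FPKM, and the right lines drop at B to at most 0.0609 FPKM.

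A wider form of the pattern gave more loci. Booting was at least 2-fold above every other stage in 33 unnamed loci (11.7%), against 2.42% of named rows, and at least 2-fold below every other stage in 40 (14.2%), against 4.51%. MSTRG.17878 (chromosome 7, 22600186 to 22603186, no RefSeq gene) was among the latter, at 9.22 FPKM at FI, 16.7 at MS and 18.8 at SD, and listed at 0 at B. The 33 and the 40 include the loci alone high and alone low at booting. For FI the shares were 6.03% above, against 7.82% of named rows, and 4.61% below, against 3.37%. For MS they were 1.77% against 0.70% above and 1.42% against 0.68% below. For SD they were 2.13% against 2.61% above and 2.13% against 1.70% below. In a bulk stem sample, fewer cells of a type and less RNA per cell cannot be told apart for any of these values. The booting value is 1 number for 2 samples, and whether both samples had it is not shown by the table. The labels give no seed lot, harvest date or library batch, so a difference in these cannot be told apart from the stage. The genes known from stem tissue, 3 secondary-wall cellulose synthases and the dry-stalk NAC gene, were at 1.91 FPKM or more at all 4 stages, but not at a steady level. The NAC gene, Sobic.006G147400, was at 8.53 FPKM at FI and 158 at B, and the cellulose synthase Sobic.002G118700 at 569.9 and 82.1 FPKM. The part of such differences in the booting pattern of the unnamed loci was not tested.

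The drought table has no unnamed rows among its 32726, so the 282 loci have no value in the potted plants. Of their positions, 218 overlapped no row of the drought table and 64 overlapped a named row, 23 with identical coordinates. Of the 64, 1 was a sole locus, MSTRG.17489. The named rows with the same booting pattern can be followed there, since potted plants were also harvested at booting, although the 2 tables were taken as normalised separately. All 38 named rows alone high at booting were found in the drought table, and 22 of them had at least 10 FPKM in all 3 columns and 6 under 1 FPKM in all. Of the 32 named rows alone low at booting, 31 were found, and 21 of them had under 1 FPKM in all 3 columns and 4 at least 10 FPKM in all. Over the 10709 named rows at 10 FPKM or more found in both tables, 70.2% had at least 10 FPKM in all 3 drought columns and 3.09% under 1 FPKM in all. As an example, Sobic.004G007300 was at 0.175 FPKM at FI, 269.9 at B, 0.0712 at MS and 0.156 at SD, and at 257 in D1, 323 in D2 and 300.5 in D3. Pot, watering and booting cannot be told apart between the tables. Nor can a seed lot or library batch that booting and drought samples might share, which the labels do not give.

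**Figure D5:**
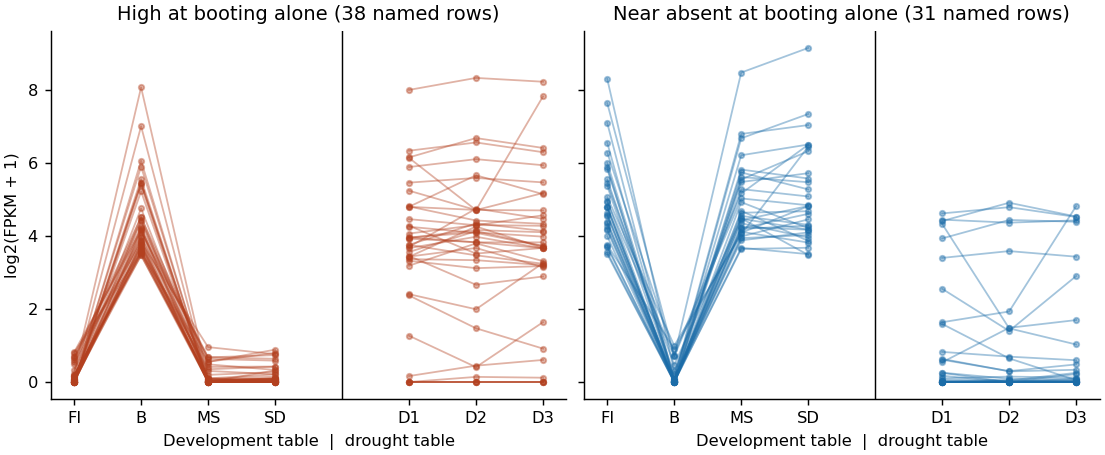
Level in FI, B, MS and SD and in the drought columns D1, D2 and D3, as log2(FPKM + 1), of the named rows alone high (38) and alone low (31) at booting. The first set had drought medians of 12.6, 15.4 and 12.01 FPKM, and the second of 0.126, 0.0331 and 0.0638 FPKM.

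Some unnamed loci followed the stage pattern of a named neighbour and others did not. For 74 sole unnamed loci with a measured named row within 5 kb, r over the 4 stages had a median of 0.292. It was at least 0.9 in 13 (17.6%) and below 0 in 31 (41.9%). In 5173 pairs of named rows the median was 0.110, with 8.14% at 0.9 or more and 45.2% below 0. MSTRG.6018 (chromosome 2, 64223619 to 64224307) was at 9.49 FPKM at FI, 1.72 at B, 8.05 at MS and 13.5 at SD. Its neighbour Sobic.002G256100, with a gap of 1 base, was at 9.25, 1.66, 5.46 and 13.0 FPKM, with r of 0.977. Both were low at booting. Whether these rows are pieces of 1 transcript was not tested. Each r rests on 4 values.

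Loci that share their position with a named row had higher r with it, and reads there could have been divided between rows. For 51 such loci with a measured named row, r had a median of 0.834, with 21 at 0.9 or more and 12 below 0. No background of named rows that share a position is given for this r. Whether it is particular to unnamed loci was not tested. Over all 61 shared loci, which include those whose named row was not measured, the unnamed row exceeded the highest named row in 32. Unnamed rows were chosen at 10 FPKM or more and these named rows had no lower limit, so the count partly follows from the choice. MSTRG.5932 (chromosome 2, 63339840 to 63351143) was at 1160 FPKM at FI, 687.9 at B, 477 at MS and 509.8 at SD. The row of Sobic.002G244700, Sobic.002G244800 and Sobic.002G244901 at that position was at 907, 531, 329 and 385 FPKM. Both were highest at FI.

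MSTRG.12478 (chromosome 4, 57051383 to 57086639) lies in a cluster with Sobic.004G220300, published as phenylalanine ammonia-lyase, the entry enzyme of lignin synthesis. The unnamed row was at 104 FPKM at FI, 12.5 at B, 1.40 at MS and 0.867 at SD, and the named row at 4139, 1053, 343 and 250.5. Both were lower at each later stage, the unnamed row by a larger ratio. MSTRG.19427 (chromosome 8, 15298416 to 15300054) was at 202 FPKM at FI, 3.99 at B, 5.72 at MS and 95.6 at SD. The row of Sobic.008G082400 at that position was at 113, 0.223, 2.32 and 49.8 FPKM, also high at the first and last stage. MSTRG.4064 (chromosome 1, 79087042 to 79103135) went the other way from its named row. It was at 0.566 FPKM at FI, 7.36 at B, 42.0 at MS and 12.2 at SD, and Sobic.001G526800 was at 63.0, 19.8, 23.5 and 28.5 FPKM, highest at FI.

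In 6 cases 2 of the 282 loci share 1 position. At chromosome 10, 12038449 to 12040262, on the lncRNA LOC110431017, MSTRG.23019 was at 45.6 FPKM at FI, 55.5 at B, 247 at MS and 203 at SD. MSTRG.23018 was at 3.65, 8.69, 39.9 and 31.1 FPKM in the same order. Both were higher in the grain-filling stages, and the file does not show whether they are separate transcripts.

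The steadiest of the 282 loci was MSTRG.23191 (chromosome 10, 21963021 to 21966896, no RefSeq gene), at 12.6 FPKM at FI, 12.2 at B, 14.0 at MS and 12.04 at SD. It was followed by MSTRG.10573 (chromosome 3, 71944457 to 71948650, LOC110433945, lncRNA), at 12.1, 13.9, 13.1 and 11.8 FPKM. The nearest named rows of both were under 2 FPKM at all stages. The longest sole locus, MSTRG.13937 (chromosome 5, 5086931 to 5105175, LOC110435352, lncRNA), was 18245 bases long and stood at 3.96 FPKM at FI, 15.0 at B, 2.63 at MS and 2.48 at SD, highest at booting. The third longest, MSTRG.4698 (chromosome 2, 7423442 to 7440063, LOC110432244, lncRNA), was at 15.0 FPKM at FI, 23.9 at MS and 13.2 at SD, and listed at 0 at B.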

How the data were processed

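RNA of the middle internode was sequenced from 14 samples in 7 groups of 2. Per the labels, the library kit was a stranded one for total RNA. The authors deposited FPKM values, 1 per row and group, in a development and a drought table, per the file headers. The sources used here give neither the genome build, nor the assembly step, nor the way a group's 2 samples became 1 value. Tools listed in the submitters' processing notes, with no role, are Cuffdiff, HISAT2 2.0.5, Bowtie2 2.2.9 and cutadapt 1.8.1. FPKM values keep no read counts, so depth and precision are unknown. The labels do not say whether the 2 samples came from separate plants.

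The 282 loci and all lists and alternatives were chosen with earlier results of these data known. Differences were taken on log2(FPKM + 1) and counted at 1 or more, with no test. A limma fit planned for values per sample could not be run. Planned drought comparisons of the unnamed loci could not be run either, since the drought table has no unnamed row. Rows at 1 FPKM or more in any stage count as measured.

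File starts were raised by 1 to count from 1. This rests on 27632 sole named rows, in which the most frequent offset between a RefSeq start and the file's start was 1 (803 rows, against 296 for the next). Of these rows, 23496 overlapped a RefSeq gene and 14620 starts lay within 100 bases of a RefSeq gene's edge, so positions were compared, but the file names no build and no RefSeq coordinates are printed. Only RefSeq symbols and gene types were used. Sequences are not used here, and leaf markers were not used for lack of gene descriptions.

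Loci were named by rule: the highest, those standing out most at each stage, the largest changes between consecutive stages, the steadiest, longest, shortest and farthest from a named row, those nearest to 10 FPKM and those on RefSeq non-coding genes. Loci named for the booting pattern, for a named neighbour, for scaffolds, for having no RefSeq gene and for a value higher at each later stage were chosen after their values were seen. Value columns left unused numbered 0. The code was tested on simulated data. Software was matplotlib 3.10.9, numpy 2.4.6 and pandas 2.3.3 under Python 3.11.15.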

Additional observations from a re-analysis of the deposited data

How the results depend on the processing

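Under other settings 94 of 113 recomputed counts and shares stayed within the limit set for them, and 19 moved. With a level minimum of 5 or 20 FPKM there were 492 or 147 unnamed loci, 45 or 12 alone high at booting and 26 or 0 alone low there. With 20 FPKM, 19.0% were at least 2-fold lower for B against FI. With a pseudocount of 5, the share with a 2-fold range was 57.4%. The shares higher were then 17.4% for B against FI, 5.32% for SD against MS, 9.93% for MS against FI, 20.2% for SD against B and 13.1% for SD against FI. The shares lower were 18.1% for B against FI and 7.09% for SD against FI. A larger pseudocount shrinks every difference by construction. Without the booting column the share with a 2-fold range was 46.8%. A 1 kb window held 52 loci near a named row. The median length was 2693.5 bases over all 282 loci, 2449 over sole loci and 2232 over all unnamed rows. Of 324 recomputed stage differences past 2-fold of single unnamed loci picked by the naming rule, 0 changed sign and 12 fell under 2-fold. Quantile normalization moved the median of all measured rows for B against FI from -0.01 to 0.10.

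The settings for the booting pattern, the one without the booting column and the one of sole loci were chosen after seeing the data. Leaving out each replicate could not be run. No paired analysis was possible because the table holds 1 value per group. Other pseudocounts, scalings and matches for drought comparisons of unnamed loci were not run, since the drought table holds none.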
